A study of Mus musculus with 6 samples.

Results

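The Schlafen genes with a numbered symbol (Slfn followed by digits) were examined in primary mouse dermal fibroblasts that had lost YAP and TAZ, with and without an inhibitor of the DNA-sensing adaptor STING. The members were every listed gene whose symbol has that form, 5 of 13706 listed genes: Slfn5, Slfn8, Slfn9, Slfn2 and Slfn3. All 5 passed the filter on low values (2 or more libraries at 1 scaled CPM or above), Slfn3 only through the KO libraries, where it was highest. RefSeq names 8 such genes in the mouse, and Slfn1, Slfn4 and Slfn14 were not analysed here. The family was chosen by its levels in the 3 groups, with the rise in KO and the level left with H-151 already known, so the levels and changes of its members are given as a description, with no test.

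There were 3 groups of 2 libraries, all from cells with both alleles of Yap1 and Wwtr1 (the gene for TAZ) flanked by loxP sites and all given 1 μM 4OH-Tamoxifen for 72 hr. The KO + H-151 cells carried R26-CAG-CreER, a Cre recombinase driven by a ubiquitous promoter and switched on by tamoxifen, and also received 1 μM H-151, a compound that blocks STING. The KO cells carried the same Cre and received tamoxifen alone. The control cells were Yap1 fl/fl; Wwtr1 fl/fl without Cre and received tamoxifen alone. Loss of YAP and TAZ and the presence of active Cre cannot be told apart between KO and control, and no control cells with H-151 were among the samples. The labels do not say whether replicates were separate cultures or animals, so the errors and p-values cover the differences among these libraries alone, which may be technical.

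Schlafen proteins are encoded by a cluster of genes in mammals and are induced by type I interferon, which signals through its receptor, the kinases Jak1 and Tyk2, and transcription factors including Irf9 to interferon-stimulated response elements (ISREs) in promoters. In the mouse they are sorted by length: Slfn2 belongs to the short group, Slfn3 to the intermediate group, and Slfn5, Slfn8 and Slfn9 to the long group, which has an added region related to helicases. Several members act on tRNA, and others restrict viruses. STING responds to the cyclic dinucleotide made by cGAS on cytosolic DNA and drives production of interferon beta.

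The target genes were lower in both groups with Cre. Wwtr1 was at 3.07 and 4.00 scaled CPM in KO + H-151 libraries, 4.79 and 5.03 in KO libraries, and 213 and 218 in control libraries. Yap1 was at 45.3 and 42.4 scaled CPM in KO + H-151 libraries, 66.4 and 68.3 in KO libraries, and 122 and 128 in control libraries; where the counted 3′ tags lie relative to the deleted exons was not examined. The scaled CPM is a read count that the authors divided by a scaled library size, and since the assay counts 1 tag near the 3′ end of a transcript it is not divided by gene length. Libraries held between 12444986 and 15308100 reads in listed genes. All 10 fibroblast markers had a row, and their summed level was 25794 to 27628 scaled CPM in KO + H-151 libraries, 39533 to 41616 in KO libraries, and 34658 to 35237 in control libraries. That sum is carried by the abundant markers. For KO + H-151 against KO, limma called 4 of the 10 higher and 6 lower, beside 19.4% and 21.4% of all genes tested. For KO + H-151 against control it called 2 higher and 5 lower, beside 11.5% and 11.4%. For KO against control it called 3 higher and 1 lower, beside 18.2% and 14.2%. In bulk libraries, fewer cells of a type and less RNA per cell cannot be told apart.

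The members lie together on chromosome 11 (GRCm38, GENCODE M21). Slfn5 is at chr11:82951349-82964840 on the plus strand, Slfn9 at chr11:82978390-82991830 and Slfn8 at chr11:83002158-83020810 on the minus strand, Slfn2 at chr11:83065112-83070678 and Slfn3 at chr11:83191330-83215154 on the plus strand. Because the family is interferon-inducible, the promoters (250 bases before to 50 after the RefSeq start, GRCm38.p6) were searched on both strands for the ISRE core, spelled GAAA, any 2 bases, GAAA. It was found in Slfn5, Slfn9 and Slfn8 and in neither Slfn2 nor Slfn3, and 3.44% of 32851 RefSeq promoter windows hold it. The promoters that show this split are printed here 5′ to 3′ in the direction of transcription, with the ISRE core in capitals. They lie at chr11:82951852-82952151 (plus strand, Slfn5), chr11:82991781-82992080 (minus strand, Slfn9), chr11:83020761-83021060 (minus strand, the upstream of the pair of Slfn8 starts in RefSeq) and chr11:83064862-83065161 (plus strand, Slfn2).
Slfn5: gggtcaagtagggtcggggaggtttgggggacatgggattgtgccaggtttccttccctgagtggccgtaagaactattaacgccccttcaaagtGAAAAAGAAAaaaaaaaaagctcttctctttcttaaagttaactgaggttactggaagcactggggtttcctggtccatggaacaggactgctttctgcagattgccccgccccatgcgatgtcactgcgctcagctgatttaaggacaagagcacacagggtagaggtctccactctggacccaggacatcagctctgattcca
Slfn9: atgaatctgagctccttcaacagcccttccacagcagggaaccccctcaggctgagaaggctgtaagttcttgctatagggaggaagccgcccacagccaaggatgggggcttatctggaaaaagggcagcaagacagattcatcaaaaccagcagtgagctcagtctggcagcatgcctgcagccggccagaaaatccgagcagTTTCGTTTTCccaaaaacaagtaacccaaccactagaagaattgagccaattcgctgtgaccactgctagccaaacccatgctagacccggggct
Slfn8: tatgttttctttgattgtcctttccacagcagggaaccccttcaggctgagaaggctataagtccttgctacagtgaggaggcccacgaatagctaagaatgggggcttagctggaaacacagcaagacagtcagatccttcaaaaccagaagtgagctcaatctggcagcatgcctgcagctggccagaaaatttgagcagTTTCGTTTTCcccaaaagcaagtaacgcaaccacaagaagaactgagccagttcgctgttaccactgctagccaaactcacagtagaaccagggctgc
Slfn2: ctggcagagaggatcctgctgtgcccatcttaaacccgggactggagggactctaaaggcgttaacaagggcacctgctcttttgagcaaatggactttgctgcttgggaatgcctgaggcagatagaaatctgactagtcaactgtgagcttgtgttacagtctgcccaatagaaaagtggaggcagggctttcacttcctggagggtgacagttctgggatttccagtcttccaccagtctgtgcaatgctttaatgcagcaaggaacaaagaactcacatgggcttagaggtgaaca

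In Slfn5 the core read GAAAAAGAAA, with its first base 155 bases before the start. The RefSeq start used for Slfn5 lies downstream of its GENCODE start, so this window falls inside the GENCODE span of the gene. In Slfn9 and Slfn8 it read TTTCGTTTTC, the motif on the opposite strand, with the first base 45 and 48 bases before the start. In the window of the other Slfn8 start, chr11:83020673-83020972, the same core lay 136 bases before it. The Slfn9 and Slfn8 promoters matched at 252 of 312 aligned positions (80.8%), whereas the other pairs of member promoters matched at 47.1% to 52.2%. The GAS core TTCNNNGAA, an element of interferon-gamma responses, was in none of the member windows and in 8.3% of all. The TEAD core GGAATG, recognised by the DNA-binding partners of YAP and TAZ, was in the Slfn2 window alone among members, starting 143 bases before the start, and in 14.7% of all windows. A match here is a run of letters, not a shown binding site.

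All 5 members were higher in both KO libraries than in both control libraries, and 4 of them by several-fold. Over all 13648 genes tested, 33.4% had KO libraries that were both above the control libraries, and since the family was chosen with this contrast in view nothing is read from the count. Slfn8, a long member with a helicase-related region, was at 1.96 and 2.06 scaled CPM in KO + H-151 libraries, 168 and 162 in KO libraries, and 2.78 and 4.25 in control libraries. The KO libraries stood far above the other 4, and the KO + H-151 libraries lay below both control libraries. Its mean was 47-fold higher in KO than in control, a log2 change of 5.22 ± 0.16 (SE from the limma fit to all genes, on log2 of scaled CPM + 1), and 28 of the tested genes had a larger rise. Its control level rests on 98 reads, and a 95% counting interval for the KO to control ratio ran 38.5 to 58.1.

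Slfn9, a long member that lies beside Slfn8 on the same strand, was at 5.42 and 6.0 scaled CPM in KO + H-151 libraries, 147 and 134 in KO libraries, and 10.2 and 10.9 in control libraries. The 3 groups did not overlap, and the KO + H-151 libraries were the lowest. The mean was 13.4-fold higher in KO than in control, a log2 change of 3.62 ± 0.12. Slfn5, a long member whose human counterpart is a nuclear protein that restricts herpesvirus transcription, was at 36.3 and 32.6 scaled CPM in KO + H-151 libraries, 208 and 223 in KO libraries, and 26.9 and 25.3 in control libraries. Again no group overlapped another, but here the KO + H-151 libraries were above the control libraries. The mean was 8.26-fold higher in KO than in control, a log2 change of 3.0 ± 0.09.

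Slfn2, the short member that mouse T cells need to stay quiescent and that shields tRNAs from cleavage in them, was at 21.3 and 19.6 scaled CPM in KO + H-151 libraries, 147 and 138 in KO libraries, and 14.2 and 15.1 in control libraries. Its groups stood in the same order as those of Slfn5. The mean was 9.7-fold higher in KO than in control, a log2 change of 3.19 ± 0.10. Slfn3, known from T-cell subsets and from rat intestinal differentiation, was near the limit of detection, at 0.980 and 0.625 scaled CPM in KO + H-151 libraries, 1.39 and 1.53 in KO libraries, and 0.926 and 0.865 in control libraries. Those levels rest on 25, 34 and 25 reads over the 2 libraries of KO + H-151, KO and control. Its KO to control ratio of 1.63 had a 95% counting interval of 0.947 to 2.86, so a difference was not detectable at this depth from the reads alone, and its log2 change was 0.38 ± 0.22. Counting intervals (Clopper-Pearson on the split of reads between groups) cover counting error only.

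**Figure D1:**
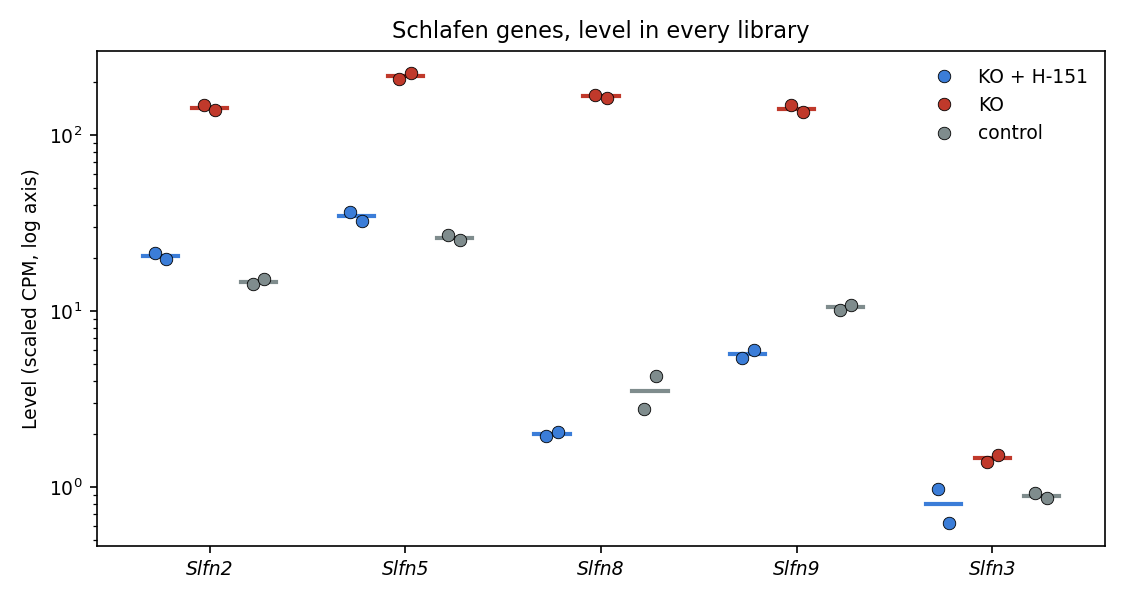
Level of the 5 Schlafen genes in every library, in scaled CPM on a log axis, with points for the 2 libraries of KO + H-151, KO and control and a bar at each mean. The KO libraries of Slfn2, Slfn5, Slfn8 and Slfn9 sit between 134 and 223, far above the other 4 libraries, and Slfn3 sits near 1 in every library.

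In order of the rise in KO, Slfn8 came first (log2 change 5.22 ± 0.16), then Slfn9 (3.62 ± 0.12), Slfn2 (3.19 ± 0.10), Slfn5 (3.0 ± 0.09) and Slfn3 (0.38 ± 0.22). The SE bars of Slfn2 and Slfn5 meet, so these neighbours are not separated by their spread. Leaving out control replicate 1 or 2 moved the change of Slfn8 to 4.98 or 5.46, still above the other members. Within a library, the ratio of Slfn8 to Slfn9 tags was 0.361 and 0.344 in KO + H-151, 1.14 and 1.21 in KO, and 0.273 and 0.391 in control. The ratio of Slfn5 to Slfn2 tags was 1.7 and 1.66 in KO + H-151, 1.41 and 1.62 in KO, and 1.89 and 1.67 in control. So the long pair Slfn8 and Slfn9 shifted against each other between KO and the other groups, and Slfn5 and Slfn2 moved nearly together. Transcript length cancels when such a ratio is compared between groups.

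With H-151 all 5 members were lower than in KO, with no overlap between the 2 groups. Over all genes tested, 33.7% were lower in both KO + H-151 libraries than in both KO libraries and 35.5% higher, and as the choice of the family used this contrast too, nothing is read from the count. The log2 changes of KO + H-151 against KO were −5.78 ± 0.16 for Slfn8, −4.40 ± 0.12 for Slfn9, −2.74 ± 0.10 for Slfn2, −2.61 ± 0.09 for Slfn5 and −0.46 ± 0.22 for Slfn3. This comparison shares the KO libraries with that of KO against control, so they do not give independent evidence about the KO level. Summed over the members, the level averaged 63.4 scaled CPM in KO + H-151, 665 in KO and 55.7 in control.

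**Figure D2:**
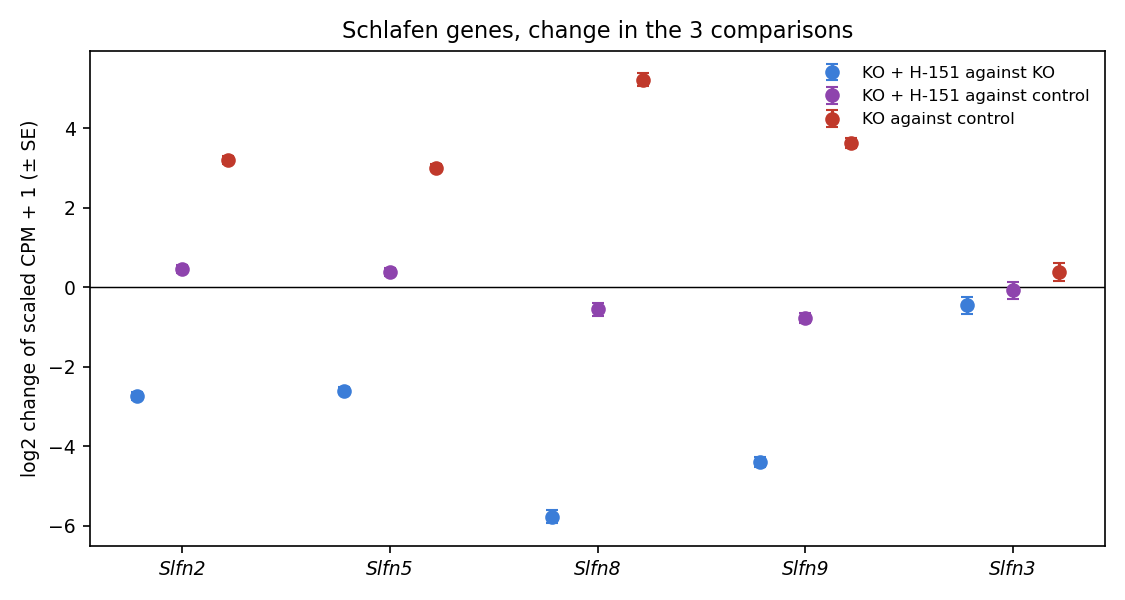
The log2 change of scaled CPM + 1 for each Schlafen gene in 3 comparisons, with SE from the fit to all genes (2 libraries per group). Changes of KO against control run from 0.38 for Slfn3 to 5.22 for Slfn8, and those of KO + H-151 against control lie on both sides of 0.

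The members did not all end on the same side of control. Slfn2 and Slfn5 stayed above it: the KO + H-151 to control ratio was 1.39 for Slfn2 (95% counting interval 1.23 to 1.58; log2 change 0.45 ± 0.10) and 1.32 for Slfn5 (1.2 to 1.45; 0.38 ± 0.09). Slfn9 and Slfn8 fell below it, at ratios of 0.543 (0.448 to 0.656; log2 change −0.78 ± 0.12) and 0.573 (0.411 to 0.795; −0.56 ± 0.16). Slfn3 overlapped control, with a log2 change of −0.08 ± 0.22. Within each side the SE bars overlapped, so Slfn2 was not separated from Slfn5, nor Slfn8 from Slfn9. Among all genes tested, 29.5% had KO + H-151 libraries both above and 29.5% both below the control libraries, so 2 of 5 members on each side is close to what any genes show, and the choice of the family used this contrast. Leaving out control replicate 1 or 2 put the Slfn8 change at −0.80 or −0.33, and the excess of Slfn2 and Slfn5 ranged over 0.40 to 0.51 and 0.31 to 0.46 when any one library was left out.

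Set against the size of the KO response, the excess in KO + H-151 was small. Of the KO minus control difference, 4.52% was left for Slfn2 and 4.39% for Slfn5, whereas for Slfn9 and Slfn8, which ended below control, the value was −3.7% and −0.93%. Markers of macrophages, which also express Schlafen genes, moved with this comparison. All 12 macrophage markers had a row and none was at 0, and their summed level was 3091 to 3815 scaled CPM in KO + H-151 libraries, 1480 to 1496 in KO libraries, and 1187 to 1408 in control libraries. Of these, limma called 11 higher in KO + H-151 than in control, beside 11.5% of all genes tested, among them Csf1r (log2 change 1.08, adjusted p = 2.63e-07) and Adgre1 (1.57, adjusted p = 9.41e-07), and none lower. Their part in the levels of Slfn2 and Slfn5 was not tested. In KO against control, 3 of the 12 were called higher and 2 lower, beside 18.2% and 14.2% of all genes. Of 9 T-cell markers, 3 had a row (Cd4, Lck and Trac), with a summed level of 3 to 3.4 scaled CPM in KO + H-151 libraries, 6.96 to 7.83 in KO libraries, and 3.2 to 3.96 in control libraries. Trac makes up most of that sum in KO and control libraries. In KO + H-151 replicate 1 Trac was at 1.503 scaled CPM and Cd4 at 1.633. Cd4 was at a mean of 1.38 scaled CPM in KO + H-151, 0.688 in KO and 0.179 in control. It moved with the sum in KO against control and the other way in KO + H-151 against KO. Its levels rest on 25 and 18 reads in KO + H-151 libraries, 7 and 9 in KO libraries, and 2 and 3 in control libraries. The 6 endothelial markers had a summed level of 18.5 to 21.4 scaled CPM in KO + H-151 libraries, 12 to 13.2 in KO libraries, and 17.9 to 19.5 in control libraries. Of these, 3 were called higher and 0 lower in KO + H-151 against KO, beside 19.4% and 21.4% of all genes. In KO against control 1 was called higher and 4 lower, beside 18.2% and 14.2%. The part of T cells and endothelial cells in the Schlafen levels was not tested either.

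The interferon pathway, known to induce Schlafen genes, was examined with a list of 15 signalling genes. One of them passed the filter on low values only through the KO libraries. Of the other 14, limma called 9 higher and 0 lower in KO against control at an adjusted p below 0.05, beside 18.2% higher and 14.2% lower among all genes tested, and their median log2 change was 1.11 against −0.01 over all genes. Irf1, a transcription factor that binds ISREs, averaged 41.8 ± 3.69 scaled CPM in KO + H-151, 974 ± 23.5 in KO and 32.1 ± 1.15 in control (SD, n = 2 each). Its log2 change was 4.88 ± 0.08 in KO against control (limma, adjusted p = 6.79e-17) and 0.37 ± 0.08 in KO + H-151 against control (adjusted p = 0.00213), a call lost when the prior variance was fitted without a trend. Usp18, a feedback inhibitor at the interferon receptor, averaged 0.955 ± 0.242 scaled CPM in KO + H-151, 377 ± 17.0 in KO and 7.85 ± 0.928 in control.

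The kinase Jak1 did not pass the test in any comparison, at 576 ± 46.4 scaled CPM in KO + H-151, 558 ± 24.5 in KO and 532 ± 7.28 in control. With H-151 set against KO, limma called 9 of the 14 lower and 1 higher (Ptpn6, a phosphatase abundant in blood cells), beside 21.4% lower and 19.4% higher among all genes. Set against control, KO + H-151 had 6 of the 14 called lower and 3 higher (Tyk2, Irf1 and Ptpn6), beside 11.4% and 11.5%. Irf1 was thus on the same side of control as Slfn2 and Slfn5, and Usp18 (log2 change −2.18 ± 0.13, adjusted p = 1.08e-08 by limma) on the side of Slfn8 and Slfn9.

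Other interferon-induced proteins that bind, cut or edit RNA, as Schlafen proteins do, gave a list of 20. Of these, 5 (Oas1a, Oas1g, Oas2, Oas3 and Oasl1) passed the filter only through the KO libraries, so a test of them had to find a rise. Of the other 15, limma called 15 higher in KO than in control, beside 18.2% of all genes, with a median log2 change of 2.76. It called 15 lower in KO + H-151 than in KO, beside 21.4% of all genes, with a median of −3.04. Ifit3, an antiviral partner of the RNA-cap-binding Ifit1, averaged 21.7 ± 0.218 scaled CPM in KO + H-151, 3171 ± 250 in KO and 41.3 ± 3.13 in control. Ifit1 averaged 12 ± 4.53 scaled CPM in KO + H-151, 13402 ± 4.55 in KO and 86.5 ± 16.2 in control. The rises in KO, on the log2 scale, were 6.23 ± 0.08 for Ifit3 (adjusted p = 5.89e-18 by limma) and 7.27 ± 0.16 for Ifit1 (adjusted p = 2.44e-15), against 3.0 to 5.22 for the 4 abundant Schlafen genes. Ifit2 rose by 5.84 ± 0.11 (adjusted p = 6.47e-16), and Oasl1 averaged 0.192 scaled CPM in KO + H-151, 339 in KO and 0.466 in control.

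In KO + H-151 against control, 10 of these 15 were called lower and 2 higher, beside 11.4% and 11.5% of all genes, with a median log2 change of −0.43. One of those above control was Oas1c, of the oligoadenylate synthetase family (log2 change 0.56 ± 0.19, adjusted p = 0.0473 by limma), which is named here after its value was seen. Ifit1, Ifit3, Oas1c and Rnaset2b of the next list have close copies in the mouse genome, so the counts of each are uncertain to the extent that reads were shared. In the plot of levels with the inhibitor relative to control, Slfn2 and Slfn5 lie with Irf1 to the right of 0.

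**Figure D3:**
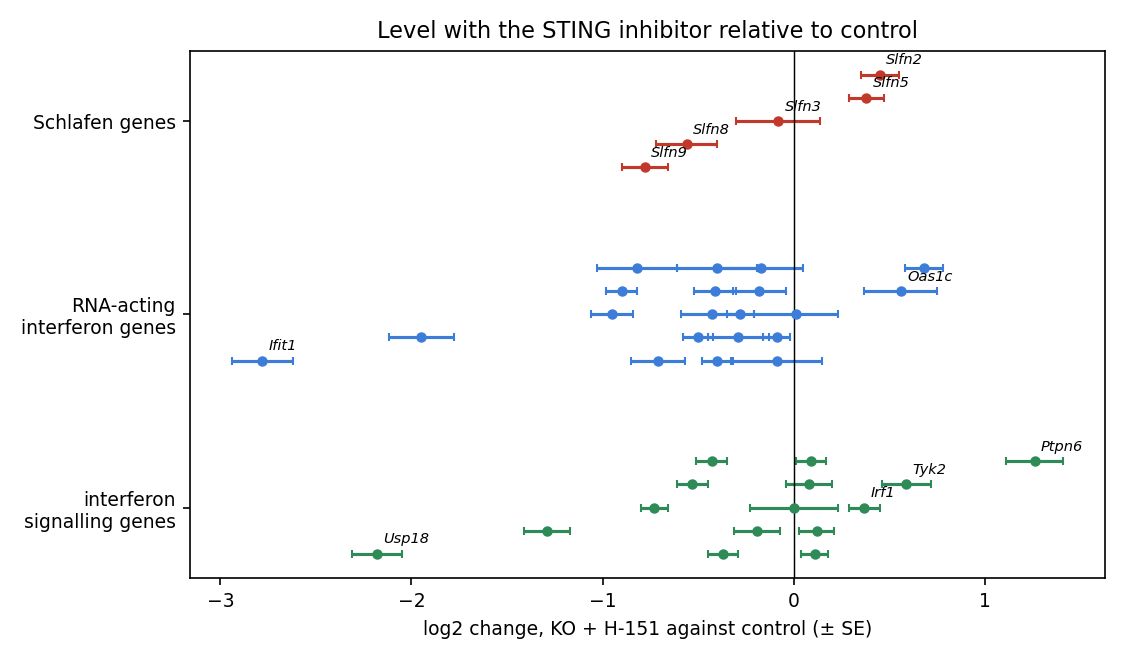
The log2 change of KO + H-151 against control (± SE, 2 libraries per group) for the Schlafen genes, 20 interferon-induced RNA-acting genes and 15 interferon signalling genes, each point a gene, with vertical offsets only to separate points. Slfn2 (0.45) and Slfn5 (0.38) lie above 0, Slfn8 (−0.56) and Slfn9 (−0.78) below it, and most RNA-acting genes lie below 0.

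The processes attributed to Slfn2 were followed with a pair of further lists. Of 24 genes of tRNA cleavage and protection, 20 were tested, 1 of which, Rnaset2b, passed the filter only through the KO libraries. Of the other 19, limma called 4 higher and 1 lower for KO against control, beside 18.2% and 14.2% of all genes, with a median log2 change of −0.09. Rnaset2b, a lysosomal ribonuclease, averaged 0.321 ± 0.1 scaled CPM in KO + H-151, 3.45 ± 0.663 in KO and 0.036 ± 0.0509 in control. Gtpbp2, which rescues stalled ribosomes, and Ythdf1, a reader of methylated RNA, rose by 0.88 ± 0.12 and 0.72 ± 0.07 on the log2 scale (adjusted p = 1.75e-05 and 1.03e-06). Rnh1, the inhibitor of secreted ribonucleases, was higher by 0.31 ± 0.06 (adjusted p = 0.00137), a call lost with total-count scaling or quantile normalization.

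Of 14 genes linked to lymphocyte quiescence, all tested, limma called 5 higher and 6 lower when KO was set against control, beside 18.2% and 14.2% of all genes. Klf4 and Klf6, zinc-finger transcription factors, rose by 1.43 ± 0.07 and 0.83 ± 0.07 on the log2 scale (adjusted p = 3.77e-11 and 3.48e-08 by limma). When KO + H-151 was set against KO, limma called 4 higher and 5 lower among the 19 tRNA genes and 6 higher and 5 lower among the 14 quiescence genes, beside 19.4% and 21.4% of all genes. For KO + H-151 against control the counts were 3 higher and 2 lower among the tRNA genes, and 1 higher and 4 lower among the quiescence genes, beside 11.5% and 11.4% of all genes.

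Of 4 further rows that lie among or beside the Schlafen genes, named here for their position, Slfn10-ps rose in KO, 1190001M18Rik was higher in both KO libraries, and AI662270 and AA465934, on the far side of Slfn3, did not pass the test (log2 changes 0.06 ± 0.27 and 0.15 ± 0.19, adjusted p = 0.884 and 0.597 by limma). Slfn10-ps, a pseudogene between Slfn8 and Slfn2, was at 4.51 and 5.63 scaled CPM in KO + H-151 libraries, 15.4 and 14.5 in KO libraries, and 4.84 and 4.25 in control libraries. Its rise in KO was 1.52 ± 0.17 on the log2 scale (adjusted p = 2.0e-06 by limma), and it did not pass the test in KO + H-151 against control (0.13 ± 0.17, adjusted p = 0.658). 1190001M18Rik, a noncoding RNA at chr11:82974316-82975585, lies on the same strand as Slfn9, beyond the 3′ end of its GENCODE span. This RNA was at 0.196 and 0.063 scaled CPM in KO + H-151 libraries, 2.87 and 3.66 in KO libraries, and 0.142 and 0.216 in control libraries. It passed the filter only through the KO libraries, so its difference is given with no test. The annotation used for counting is not given, and its tags and those of Slfn9 cannot be told apart if that annotation extends Slfn9 over it.

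Some members also share sequence. Within the last 500 bases of their transcripts, where the assay counts, 25.5% of the 50-base stretches of Slfn8 and 17.1% of those of Slfn9 occur in another gene, chiefly Slfn10-ps and each other, and for Slfn3 it was 12.5%, with Slfn4. For Slfn2 and Slfn5 the share was 0%. How reads that fit several places were counted is not given in the sources used here, so the split between Slfn8, Slfn9 and Slfn10-ps is uncertain to that extent. The antisense genes Slfn5os and Gm20234 overlap Slfn5 and Slfn2, and without a stated strand setting their reads cannot be told apart.

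Of the 10 listed genes nearest on each side, Tmem132e passed the filter only through the KO libraries. Of the other 19, limma called 8 higher and 1 lower for KO against control, beside 18.2% and 14.2% of all genes, with a median log2 change of 0.14. The nearest on one side, Nle1 (a ribosome biogenesis factor), did not pass the test at 0.01 ± 0.18. The rises of at least 1 lay farther out, in chemokine genes: Ccl5 (log2 change 6.54), Ccl4 (4.36), Ccl12 (3.42), Ccl7 (3.07), Ccl8 (2.77) and Ccl3 (2.72), with a largest adjusted p of 7.6e-09 by limma, for Ccl3. Tmem132e averaged 0.293 scaled CPM in KO + H-151, 1.94 in KO and 0.393 in control. Among these 19 neighbours, 7 were called lower and 2 higher in KO + H-151 against KO, beside 21.4% and 19.4% of all genes, and 2 lower and 4 higher in KO + H-151 against control, beside 11.4% and 11.5%. Ccl8, Ccl3 and Ccl4, chemokines that macrophages also make, were among those above control, at log2 changes of 0.93, 0.96 and 1.64.

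**Figure D4:**
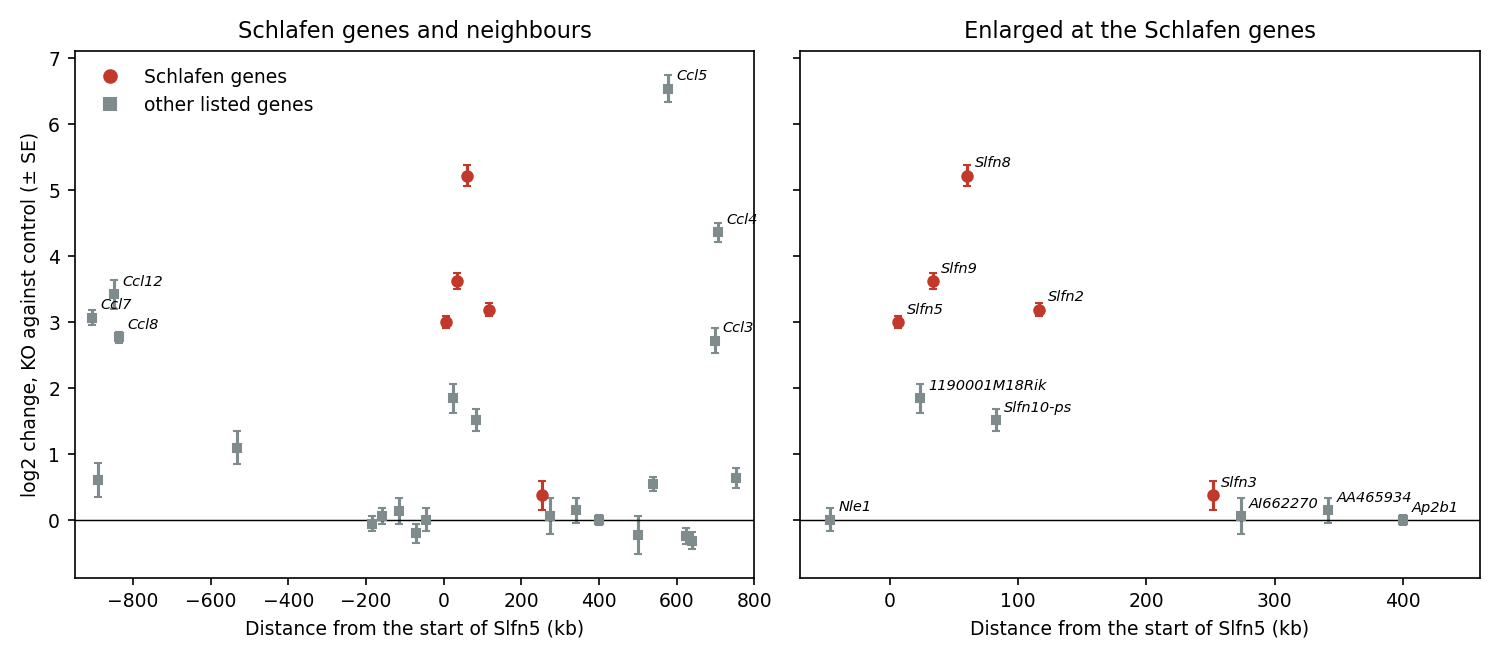
The log2 change of KO against control (± SE, 2 libraries per group) by distance in kb from the start of Slfn5, for the Schlafen genes (circles) and other listed genes (squares), with the cluster enlarged at right. Slfn8 (5.22) is the highest point inside the cluster, and Nle1 (0.01) lies just outside it.

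The genes whose pattern over the 6 libraries was most like each member were found by Euclidean distance on log2 of scaled CPM + 1, centred on the control mean. Slfn2 and Slfn5 were among the 3 nearest of each other, at a distance of 0.35. Nearest to Slfn5 was Tmem140 (0.25), followed by Gnb4 (a G-protein beta subunit), Slfn2, Tap1 (a peptide transporter of antigen presentation), Batf2, Znfx1, Ppm1k and Psmb8 (an immunoproteasome subunit, 0.51). Batf2 reached 1 scaled CPM only in the KO libraries, and its mean was 73.8-fold higher there than in control, against 8.26-fold for Slfn5. Adding 1 before the log shrinks changes at such levels, so its distance is not read as likeness. For Slfn2 the nearest was again Tmem140 (0.17), followed by Gm44292, Slfn5, Gnb4, Tap1, Ppm1k, 9330175E14Rik and Mxd1 (0.49). Since likeness was measured over all 6 libraries, the level of these genes in each group follows from their choice.

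Slfn9 had no member near it, with Slfn2 the closest at 1.85. Its nearest gene was Phf11d (0.26), and Tfap2b, Dtx3l, Helz2, Csrnp1, Olfr56 and Mndal (0.70) were also among its 8 nearest. Slfn8 was nearest to Gbp7 (0.46), a guanylate-binding protein, then Ddx60, Ifih1 (a sensor of double-stranded RNA), Parp14, Herc6, Gbp11, Gbp2b and Gm4951 (0.70). Olfr56 and Gbp11 reached 1 scaled CPM only in the KO libraries. Their KO to control ratios of means were 37.9 and 143, against 13.4 for Slfn9 and 47 for Slfn8. The added 1 shrinks such changes, so the distances of Olfr56 and Gbp11 are not read as likeness. The nearest genes to Slfn3, led by Rgl1, Slc30a7, Chodl, Ube2d1, Ube2d3, Igsf10, Arpc5l and Rsl24d1, lay at 0.07 to 0.13 and had log2 changes of 0.36 to 0.46 in KO against control. Slfn3 rests on 25 to 34 reads per group, and a pseudocount of 1 shrinks changes at such levels. Its short distances are therefore not read as likeness. These likenesses describe the 6 libraries, in which each gene's values share depth and scaling.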

How the data were processed

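Libraries were made from total RNA with the QuantSeq 3′ mRNA kit, per the labels' protocols. STAR 2.5.3a, featureCounts and edgeR with build mm10 are named in the submitters' processing notes; the annotation, strand setting and treatment of multiply mapped reads are not given in the sources used here. The deposited signal per gene was a CPM on a scaled library size, taken as such from the values: 100.0% of values were whole multiples of 1 read (tolerance 0.0006), with 12444986 to 15308100 reads per library. The values were planned for as plain CPM, and the same log-scale test was kept.

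The 13648 genes that reached 1 scaled CPM in 2 or more libraries were fitted on log2(value + 1) with limma 3.58.1 in R 4.3.3: 3 group means, a variance trend, 3 residual degrees of freedom (15.7 after moderation), Benjamini-Hochberg adjustment over all genes, threshold 0.05. Fold changes on this scale understate those of low genes. limma called 4421 genes in KO against control, 5566 in KO + H-151 against KO and 3132 in KO + H-151 against control; edgeR 4.0.16 on the recovered reads called 4274, 5513 and 3211. DESeq2 1.42.0, other scalings, filters, pseudocounts and left-out libraries were alternatives. The script was tested on simulated data.

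The members and lists were chosen with earlier results of these data known. Genes named are every member, its 8 nearest genes, the 3 genes with the smallest p and the most abundant gene of each list, the nearest neighbours and neighbours changed by at least 1 on the log2 scale, and Yap1 and Wwtr1. Some genes that this rule names are not reported here. Promoters and their coordinates are from RefSeq (GRCm38.p6), other positions from GENCODE M21.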

Additional observations from a re-analysis of the deposited data

How the results depend on the processing

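The sign of each log2 change of Slfn2, Slfn5, Slfn8 and Slfn9 was the same under all 12 alternatives to the setting used, and under the 11 that gave a value for Slfn3, which failed the filter on a mean of 10. Leaving out 1 library turned no sign of those 4 genes, but Slfn3 in KO + H-151 against control ranged over −0.22 to 0.06, and Slfn3 failed the filter without either KO replicate. Values moved by more than the spread between libraries as follows. With a pseudocount of 4 the log2 changes of KO against control were 2.87 for Slfn5, 3.31 for Slfn9, 4.50 for Slfn8, 2.97 for Slfn2 and 0.16 for Slfn3, those of KO + H-151 against KO were −2.52, −3.90, −4.81, −2.58 and −0.19 in the same order, and those of KO + H-151 against control were −0.58 for Slfn9 and −0.31 for Slfn8. With a pseudocount of 0.25, Slfn8 was at 5.48 in KO against control, and in KO + H-151 against KO Slfn9 was at −4.56, Slfn8 at −6.19 and Slfn3 at −0.72. With total-count scaling, KO against control gave 2.84 for Slfn5, 3.46 for Slfn9 and 3.03 for Slfn2, and KO + H-151 against KO gave −2.44, −4.23 and −2.57. Quantile normalization gave 2.84, 3.49 and 3.05 in KO against control, and −2.46 for Slfn5 and −2.63 for Slfn2 in KO + H-151 against KO. On recovered reads, edgeR and DESeq2 gave 3.74 and 3.75 for Slfn9, 5.55 and 5.56 for Slfn8, and 0.70 and 0.72 for Slfn3 in KO against control. They gave −4.62 and −4.63 for Slfn9, −6.35 and −6.37 for Slfn8, and −0.86 and −0.88 for Slfn3 in KO + H-151 against KO, and −0.80 and −0.81 for Slfn8 in KO + H-151 against control. The cause of these shifts was not tested, beyond the pseudocount's own effect on low levels. Leaving out 1 library put Slfn8 at 4.98 to 5.46 in KO against control and at −0.80 to −0.33 in KO + H-151 against control.

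With total-count scaling the median log2 change over all genes was −0.16 in KO against control and 0.18 in KO + H-151 against KO. With quantile normalization it was −0.10 and 0.10. Rnh1 in KO + H-151 against KO, at −0.01 in the setting used, was at 0.16 and 0.21 under these scalings. The share called higher among genes called was 56.2% in KO against control, 45.9% with median scaling, 29.9% with total-count scaling and 39.1% with quantile normalization. In KO + H-151 against KO it was 47.5%, 51.2%, 71.2% and 61.9%. Genes called lower in KO against control, 1938, came to 1266 with the filter on a mean of 10, 4054 with total-count scaling, 2987 with quantile normalization, 1217 with DESeq2 and 1180 to 1269 with 1 library left out. In KO + H-151 against KO, 2643 called higher came to 1676 with the filter and 4770 with total-count scaling, and 2923 called lower to 1930 with total-count scaling. In KO + H-151 against control, 1570 called higher came to 964 to 1347 with 1 library left out, and 1562 called lower to 937 without a variance trend and 936 to 1501 with 1 library left out; control replicate 2 gave both low ends. The 4 lists together had 7 genes called lower in KO against control, 3 without a variance trend and 2 to 4 with 1 library left out, and 11 called higher in KO + H-151 against KO, 19 with total-count scaling, 7 without a trend and 7 to 10 with 1 library left out. The neighbours had 1 called lower in KO against control, 0 with the filter on a mean of 10 and with DESeq2, 2 with median scaling and quantile normalization, 3 with total-count scaling and 0 to 2 with 1 library left out. They had 2 called higher in KO + H-151 against KO, 5 with total-count scaling, 1 with DESeq2 and 0 to 3 with 1 library left out.

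The replicate numbers were not treated as pairs, since the correlations of same-numbered deviations were −0.0676 between KO and control, 0.154 between KO + H-151 and control and −0.128 between KO + H-151 and KO. A replicate block gave 2430 called higher and 1887 lower in KO against control, 2599 and 2864 in KO + H-151 against KO, and 1513 and 1500 in KO + H-151 against control. A crossed block with the KO numbers swapped, chosen after seeing the data, gave 2891 and 2431, 3055 and 3314, and 1985 and 2013. Depth limits Slfn3 (25 to 34 reads per group) and the levels of Slfn8 outside KO (63 and 98 reads).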
